A study of Homo sapiens with 8 samples.

Results

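MiR-210 is a microRNA (miRNA) widely used as a marker of low oxygen. Its hairpin precursor gives a pair of mature products, hsa-miR-210-3p and hsa-miR-210-5p, and both were taken by name from the deposited count tables as 2 of the 2575 names listed. Small RNA had been sequenced from HCT116, an established human colorectal cancer cell line kept as adherent cultures (passages 16 to 19). The cells of 4 libraries had spent 6 hours with enterotoxigenic Bacteroides fragilis (ETBF), an anaerobe of the colon whose secreted toxin leads to cleavage of E-cadherin at cell contacts, at 500 bacteria per cell (the multiplicity of infection). Those of the other 4 had received the medium of the bacterium alone and are titled untreated. All cells were of this line, and no other genotype, dose or time with ETBF was compared. The titles of the controls give no time. Whether replicates were separate cultures is not stated in the labels. The p-values therefore measure the spread between these libraries only, and that spread may be technical.

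In textbook accounts, the oxygen-sensing transcription factor HIF (subunits encoded by HIF1A and EPAS1) switches on the host gene MIR210HG when oxygen is scarce. The 3p arm, the guide strand, is loaded into Argonaute and pairs through its seed (bases 2 to 8) with messages such as ISCU, an iron-sulfur cluster scaffold of mitochondrial respiration, EFNA3, an ephrin ligand of vessel growth, and GPD1L. The 5p arm is the passenger strand, which is mostly degraded. In colorectal tumours miR-210 is often raised and is read as a sign of hypoxia.

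The sequences of both arms are shown because each counted name stands for one of them. They come from RefSeq (GRCh38.p14), written 5′ to 3′ with the seed in capitals.
hsa-miR-210-3p: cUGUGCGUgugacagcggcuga
hsa-miR-210-5p: aGCCCCUGcccaccgcacacug
Each arm is 22 bases long. The 3p arm lies at chr11:568112-568133 and the 5p arm at chr11:568150-568171, both on the minus strand of GRCh38.p14, a later build than the GRCh37.p5 of the authors' processing. Of the 2260 names with a RefSeq mature sequence, 0 others carried the 3p seed and 0 others the 5p seed, so neither arm had a seed family in the tables. The only name with the same bases 2 to 7 or 3 to 8 as either arm was hsa-miR-4749-3p, for the 5p arm, and it reached at most 2 counts in a library.

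The precursor is shown to place the arms, which are in capitals, the 5p arm at bases 28 to 49 and the 3p arm at bases 66 to 87 of 110.
MIR210 hairpin: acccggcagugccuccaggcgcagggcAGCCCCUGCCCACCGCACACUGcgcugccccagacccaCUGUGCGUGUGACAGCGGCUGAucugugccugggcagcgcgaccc
The hairpin lies at chr11:568089-568198 on the minus strand and has a GC content of 72.7%. In GENCODE 29 it falls in the intron of all 4 annotated transcripts of MIR210HG, a long non-coding RNA with 2 exons in each of them. Both arms therefore come from the same primary transcript.

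The promoter of MIR210HG is shown because the arms share it and both moved with ETBF. It spans 250 bases before to 50 bases after the RefSeq start, at chr11:568408-568707 on the minus strand of GRCh38.p14, and the start lies 259 bases ahead of the hairpin. Capitals mark the core letters of hypoxia response elements, ACGTG or GCGTG, searched on both strands.
MIR210HG promoter: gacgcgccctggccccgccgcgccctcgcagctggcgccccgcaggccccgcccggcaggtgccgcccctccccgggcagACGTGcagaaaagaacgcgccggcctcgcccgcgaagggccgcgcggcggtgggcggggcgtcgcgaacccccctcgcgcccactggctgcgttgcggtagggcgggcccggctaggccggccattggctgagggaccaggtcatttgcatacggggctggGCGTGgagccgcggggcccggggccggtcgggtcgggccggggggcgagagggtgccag
ACGTG occurred once, 170 bases before the start, and GCGTG once, 9 bases before it, with no overlap between them. Of 35116 RefSeq promoters of the same length, 21.4% held ACGTG, 36.5% held GCGTG and 48.4% held either. Among the 3292 promoters within 5 percentage points of its GC content, 20.8% held ACGTG, 56.7% held GCGTG and 64.5% held either. GCGTG is therefore common in windows of this composition, and ACGTG is less so. The share that held both was not counted. A match is a description of the sequence, and binding was not measured.

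Both arms were lower after 6 hours with ETBF. The guide arm miR-210-3p fell 2.70-fold and the passenger arm miR-210-5p fell 1.81-fold. For each arm every ETBF library lay below every control library.

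The guide arm was counted 969, 1008, 1055 and 781 times in ETBF replicates 1 to 4. In control replicates 1 to 4 it was counted 3219, 3724, 3690 and 4809 times. Expressed as CPM, counts relative to a library total corrected for composition by its TMM factor, the ETBF levels were 208, 237, 271 and 292 CPM and the control levels 640, 656, 701 and 717 CPM. The lowest control library was 2.19-fold above the highest ETBF library. The means were 679 ± 36.6 CPM for controls and 252 ± 37.1 CPM for ETBF (SD, n = 4 each). The log2 fold change was -1.43 (SE 0.10, 95% interval -1.64 to -1.22, edgeR quasi-likelihood test, adjusted p = 1.47e-08 over the 480 tested miRNAs). In RNA from whole cultures, less miR-210 per cell and fewer cells that carry it cannot be told apart.

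The passenger arm was counted 21, 18, 23 and 17 times in ETBF replicates 1 to 4 and 41, 69, 46 and 56 times in control replicates 1 to 4. Its ETBF levels were 4.51, 4.23, 5.91 and 6.36 CPM. Its control levels were 8.15, 12.2, 8.74 and 8.35 CPM. Control replicate 2 stood above the other 3 controls, which lay close together, and the groups did not overlap. The counting intervals of single libraries did overlap: that of ETBF replicate 4 ran from 3.71 to 10.2 CPM and that of control replicate 1 from 5.85 to 11.1 CPM (95%, Poisson, counting error only). The means were 9.35 ± 1.88 CPM for controls and 5.25 ± 1.04 CPM for ETBF (SD, n = 4 each). The log2 fold change was -0.86 (SE 0.21, 95% interval -1.31 to -0.40, edgeR adjusted p = 0.00479).

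**Figure D1:**
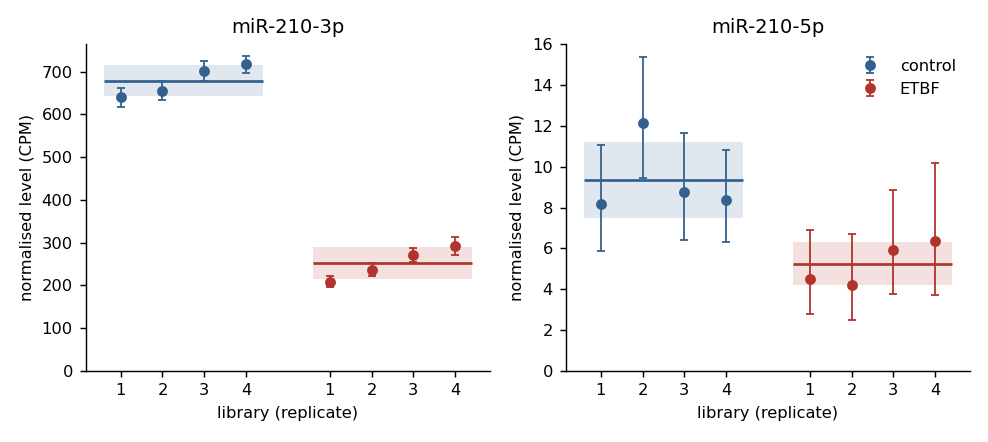
Normalised level (CPM, linear axis from 0) of the guide arm miR-210-3p (left) and the passenger arm miR-210-5p (right) in the 4 control and 4 ETBF libraries. Points are libraries with 95% Poisson counting intervals, and lines and bands are the group mean and SD. The guide arm sits at 640 to 717 CPM in controls and 208 to 292 CPM with ETBF, and the passenger arm at 8.15 to 12.2 CPM and 4.23 to 6.36 CPM.

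These 2 falls are read against a table in which 14.6% of the 480 tested miRNAs were lower with ETBF and 19.8% higher (34.4% in either direction), 70 and 95 miRNAs in number (71 higher and 89 lower with upper-quartile scaling). All ETBF values lay below all control values for 15.6% of the tested miRNAs. Both arms were chosen with earlier results of these data known. Only 6 miRNAs, 1.25% of those tested, were lower by at least 2-fold, and miR-210-3p was among them. By size of fall miR-210-3p ranked 3 of 480 and miR-210-5p 13. The rank of miR-210-3p was 5 of 506 without ETBF replicate 1, and 129 of 1496 with no filter, where names of few counts enter. By p-value they ranked 5 and 106. A single tested miRNA, hsa-miR-149, had both a fall at least as large as that of miR-210-3p and a higher control level (log2 fold change -1.44, 5702 CPM in controls, named here after its values were seen).

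MiR-210-3p was a fairly abundant miRNA of these cells, ranked 68 of 480 by mean control level and 103 by mean ETBF level. MiR-210-5p ranked 297 and 374. Mature miRNAs are of near-equal length (20 to 24 bases for 405 of the 417 tested names with a sequence), so these levels are close to per-length levels. The next 3 names above miR-210-3p in controls were miR-30b-5p (803 CPM), miR-425-5p (955 CPM) and let-7e-5p (984 CPM). The next 3 below were miR-28-3p (669 CPM), miR-9-3p (629 CPM) and miR-106b-3p (629 CPM). Their log2 fold changes ran from -0.23 for miR-28-3p to 0.24 for miR-106b-3p. Of the 20 names nearest in control level, 10 on either side, 6 were lower and 2 higher with ETBF, and their log2 fold changes ran from -0.64 to 0.42 with a median of -0.09. The shares over all 480 tested miRNAs were 14.6% lower and 19.8% higher. The fall of miR-210-3p lay outside the range of these 20.

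**Figure D2:**
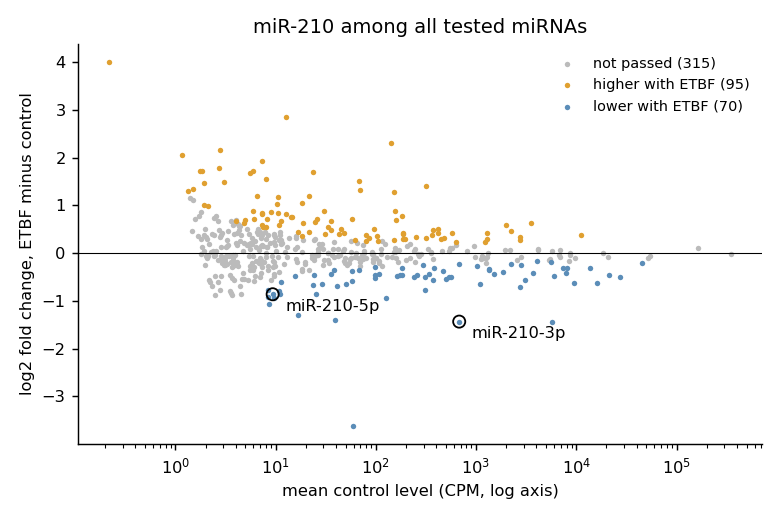
Mean control level (CPM, log axis) against the log2 fold change, ETBF minus control, of the 480 tested miRNAs. Colours give the edgeR call at an adjusted p of 0.05, and the circled points are the arms of miR-210, at -1.43 and -0.86.

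Spread between replicates beyond counting error was estimated by edgeR's biological coefficient of variation. The estimate was 10.5% for the guide arm, at the 10.5% of the trend for its level. For the passenger arm it was 13.4%, where the trend was 14.7%. EdgeR draws each estimate toward this trend, so the closeness does not show how typical the spread was. The CPM of miR-210-3p varied by 14.7% among ETBF libraries and by 5.39% among controls (coefficient of variation, n = 4 each).

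The fall of the guide arm was also measured without a scaling factor, against miRNAs often used as qPCR references (miR-16-5p, miR-25-3p, miR-103a-3p, miR-191-5p and miR-423-3p). As a share of the geometric mean of these 5 counts, miR-210-3p stood at 4.61%, 5.26%, 5.92% and 6.49% in ETBF replicates 1 to 4. In control replicates 1 to 4 it stood at 15.6%, 14.4%, 15.5% and 16.3%. The groups did not overlap. The mean log2 ratios were -2.70 ± 0.07 for controls and -4.18 ± 0.21 for ETBF (SD, n = 4 each), a difference of -1.48 or 2.79-fold (two-sided exact permutation p = 0.0286, the smallest that 4 against 4 libraries allow). The same ratio for miR-210-5p differed by -0.88 (exact permutation p = 0.0286). References taken singly gave differences from -1.82 against miR-103a-3p to -1.04 against miR-423-3p. These references were not all steady: 2 of the 5 were themselves higher and 1 lower with ETBF.

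The passenger arm took a larger share of miR-210 counts with ETBF on average, although the call on this difference rested on single libraries. Reads of the 5p arm made up 2.12%, 1.75%, 2.13% and 2.13% of miR-210 counts in ETBF replicates 1 to 4. In control replicates 1 to 4 they made up 1.26%, 1.82%, 1.23% and 1.15%. The groups overlapped, with control replicate 2 above ETBF replicate 2. In counts, 45.9 to 56.0 guide reads stood against each passenger read with ETBF, and 54.0 to 85.9 in controls. Each share rested on few 5p reads: the 95% Clopper-Pearson interval of ETBF replicate 4, with 17 of 798, was 1.25% to 3.39%.

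The mean shares were 1.36% ± 0.306 for controls and 2.03% ± 0.187 for ETBF (SD, n = 4 each). The log2 ratio of 5p to 3p rose by 0.63 (SE 0.17, 95% interval 0.25 to 1.01, limma adjusted p = 0.0218 over 118 hairpins). An exact permutation test of the share gave p = 0.0571. The limma call was lost without ETBF replicate 3 or 4 (adjusted p = 0.0510 and 0.0576) and without control replicate 3 or 4 (adjusted p = 0.0573 and 0.0516). After thinning every library to the smallest total it was lost as well (difference 0.54, adjusted p = 0.170). The direction was kept in each of these.

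**Figure D3:**
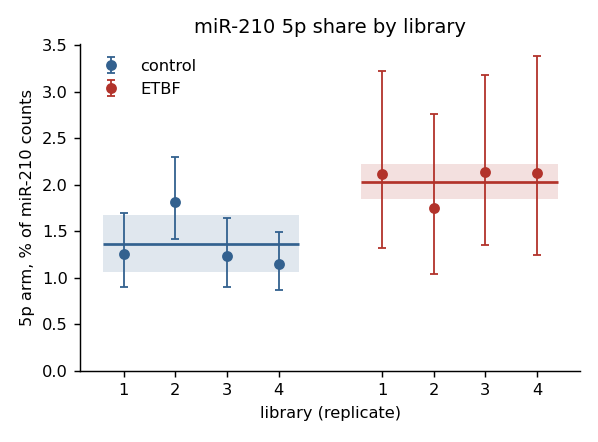
Share of the 5p arm among all miR-210 counts (%) in each of the 4 control and 4 ETBF libraries, with 95% Clopper-Pearson intervals for counting error, and the group mean and SD as lines and bands. Control replicate 2 (1.82%) lies above ETBF replicate 2 (1.75%), and the other libraries are separate.

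A shift of the arm ratio was common in these libraries. Of the 118 hairpins whose arms were both tested, 38 or 32.2% passed the arm-ratio test, 31 of them toward the minor (less abundant) arm and 7 toward the major arm. MiR-210 was 1 of the 31, and 24 hairpins had a larger shift toward the minor arm. Its 5p arm made up 1.49% of its counts over all libraries, where the median minor arm made up 7.55%, and 31 hairpins were more uneven.

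Both arms of miR-210 fell, as was so for 7 of the 118 hairpins (5.93%), the others being miR-28, miR-132, miR-330, miR-423, miR-574 and miR-671. The number ran from 5 to 9 over 18 alternatives. MiR-210 was among them in each but the stricter filter, which removed its 5p arm, and miR-28 was not in 7 of them, total-count scaling, thinning and leaving out ETBF replicate 3 or 4 or control replicate 1, 2 or 3 (edgeR adjusted p of miR-28-3p 0.0593 to 0.106). Minor arms were more often higher than lower, 33 against 11, with a median log2 fold change of 0.16. Major arms were higher in 18 and lower in 30, with a median of -0.01. The fall of miR-210-3p ranked 1 among the 118 major arms and that of miR-210-5p ranked 4 among the minor arms.

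**Figure D4:**
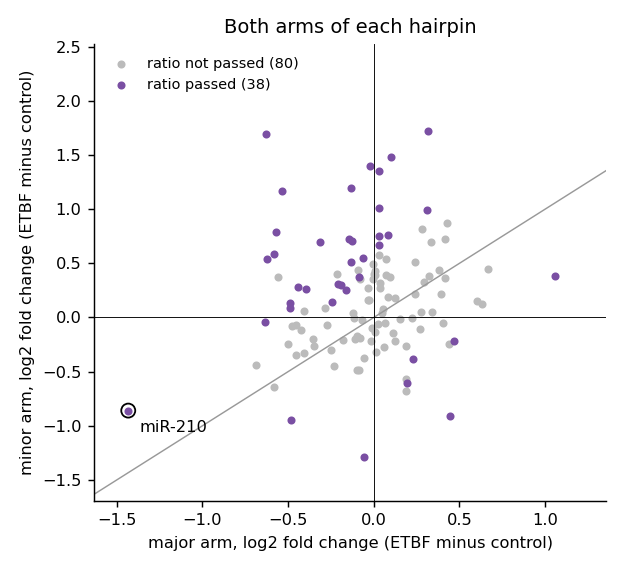
Log2 fold change (ETBF minus control) of the major arm against that of the minor arm for 118 hairpins, with the line of equal change. Purple points passed the arm-ratio test (38) and miR-210 is circled at -1.43 for the major arm and -0.86 for the minor arm, farthest left of all.

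MiR-210 is rich in G and C. The GC content was 63.6% for the 3p arm and 72.7% for the 5p arm, against a median of 47.6% over the 417 tested names with a sequence. Of 77 other such names within 5 percentage points of the 3p arm, 17 were lower and 7 higher with ETBF. Their median log2 fold change was -0.04. None of these 77 fell as far as miR-210-3p, the lowest being at -1.40. Tested names without a sequence could not be compared, and hsa-miR-149, which fell at least as far, was not among the 77. Of 23 near the 5p arm, 4 were lower and 1 higher, with a median of -0.17 and a lowest value of -0.82. For comparison, 14.6% of all 480 tested miRNAs were lower and 19.8% higher. After removal of the GC trend in each library the log2 fold change was -1.32 for miR-210-3p (edgeR adjusted p = 8.41e-09) and -0.62 for miR-210-5p (edgeR adjusted p = 0.0336).

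Depth and RNA composition also differed between the groups. Library totals were 2591655 to 4706156 counts with ETBF and 5243400 to 6522542 in controls, and both arms were counted in every library. Entries that resemble ribosomal or other RNA, a sign of RNA quality, summed to 194 to 610 CPM with ETBF and 46.3 to 173 CPM in controls. All 5 tested of the 9 listed were higher with ETBF, as were 19.8% of all 480 tested miRNAs. Of the other 4, miR-4492 and miR-1290 had 0 counts in every library. Library totals and the sums of these entries both separated the groups without overlap. Their part in the fall of miR-210 cannot be told apart from that of ETBF and was not tested. Within the ETBF group these entries summed to 194, 227, 304 and 610 CPM in replicates 1 to 4. In the same order library totals fell and miR-210-3p rose (208, 237, 271 and 292 CPM). The controls did not share such an order. The control with the most of these entries, replicate 2 at 173 CPM, had 656 CPM of miR-210-3p, within the range of the other controls. Without ETBF replicate 4 the log2 fold change of miR-210-3p was -1.51 (edgeR adjusted p = 1.46e-08). With all libraries thinned to 2591655 counts it was -1.45 (edgeR adjusted p = 4.43e-10).

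The libraries carried the miRNAs of an epithelial line. Of 10 epithelial and intestinal markers 9 were tested, led by miR-200c-3p, and they summed to 25820 to 28364 CPM with ETBF and 29566 to 31492 CPM in controls. Of the 9, 5 were lower and 1 higher with ETBF, where 14.6% and 19.8% of all 480 tested miRNAs were. Of 7 blood markers 4 were tested, summing to 71.0 to 103 CPM and 58.4 to 67.6 CPM, and the other 3, miR-223-3p, miR-144-3p and miR-150-5p, had at most 4 counts in a library. The erythroid miR-451a alone rose among the 4 tested, from 7.24 ± 1.97 to 29.4 ± 19.8 CPM (SD, n = 4 each). Its log2 fold change was 1.94 (edgeR adjusted p = 0.000458), and its ETBF libraries differed widely. The other tested blood markers lay between -0.09 and 0.02. Of 7 stromal and muscle markers 4 were tested, at 385 to 429 CPM and 413 to 428 CPM. The 2 endothelial arms of miR-126 summed to 1077 to 1293 CPM and 1488 to 1675 CPM, and miR-126-3p was lower with ETBF (-0.43, SE 0.08). The part of these lists in the fall of miR-210 was not tested.

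MiRNAs reported to rise in hypoxia went both ways. Of 27 listed, the arms of miR-210 included, 25 were tested: 8 fell, 4 rose and 13 missed the threshold. Their median log2 fold change was 0.03. Over all 480 tested miRNAs 14.6% fell and 19.8% rose, and the median was 0.01. Without the arms of miR-210, 6 of 23 were lower and the median was 0.04. The largest fall after those of miR-210 was that of miR-27a-3p, 1.48-fold.

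Among the abundant members that passed, miR-26a-5p, a repressor of EZH2, went from 27438 CPM in controls to 19513 CPM (log2 fold change -0.49, SE 0.06). MiR-27a-3p, a repressor of the ubiquitin ligase gene FBXW7, fell (-0.57, SE 0.07), as did miR-24-3p (-0.31, SE 0.07) and miR-125b-5p (-0.32, SE 0.08). MiR-103a-3p, encoded in introns of PANK genes, rose (0.37, SE 0.07), and so did miR-93-5p from the MCM7 gene (0.47, SE 0.10). MiR-21-5p, the most abundant member, was at -0.02 (SE 0.07) and did not pass. MiR-155-5p and miR-373-3p had at most 1 count in a library and were not tested.

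A further list held miRNAs reported to act on messages of the HIF system itself (HIF1A, EPAS1, VHL, CUL2 or HIF1AN). Of 15 listed, 10 were tested: 4 rose, 2 fell and 4 missed the threshold. The median log2 fold change was 0.18. The same background applies: 19.8% of all 480 tested miRNAs rose, 14.6% fell, and their median was 0.01. The 4 that rose were miR-20a-5p (0.63, SE 0.07), miR-17-5p (0.60, SE 0.10) and miR-18a-5p (0.38, SE 0.12) of the miR-17-92 cluster and miR-31-5p (0.34, SE 0.10), a repressor of the HIF hydroxylase HIF1AN. The 2 that fell were miR-22-3p (-0.50, SE 0.10), a repressor of HIF1A, and miR-429 (-0.23, SE 0.07), which also stands in the first list. MiR-92a-3p, the most abundant that did not pass, was at -0.00 (SE 0.08). Only 2 members were higher under upper-quartile scaling or without ETBF replicate 2, since miR-18a-5p (edgeR adjusted p = 0.0536 and 0.0780) and miR-31-5p (0.0621 and 0.0798) lost their calls. Only 1 was lower under total-count scaling or without ETBF replicate 3 or 4, since miR-429 lost its call (edgeR adjusted p = 0.0826, 0.0576 and 0.0519). MiR-18a-5p also lost its call after thinning and without ETBF replicate 3 or control replicate 1 or 2 (edgeR adjusted p = 0.0633, 0.0670, 0.0507 and 0.0635), and miR-31-5p without ETBF replicate 1 (edgeR adjusted p = 0.0516). Reads can be shared between miR-106a-5p and miR-17-5p, between miR-20b-5p and miR-20a-5p and between miR-107 and miR-103a-3p, whose sequences are nearly alike, so their levels are uncertain.

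**Figure D5:**
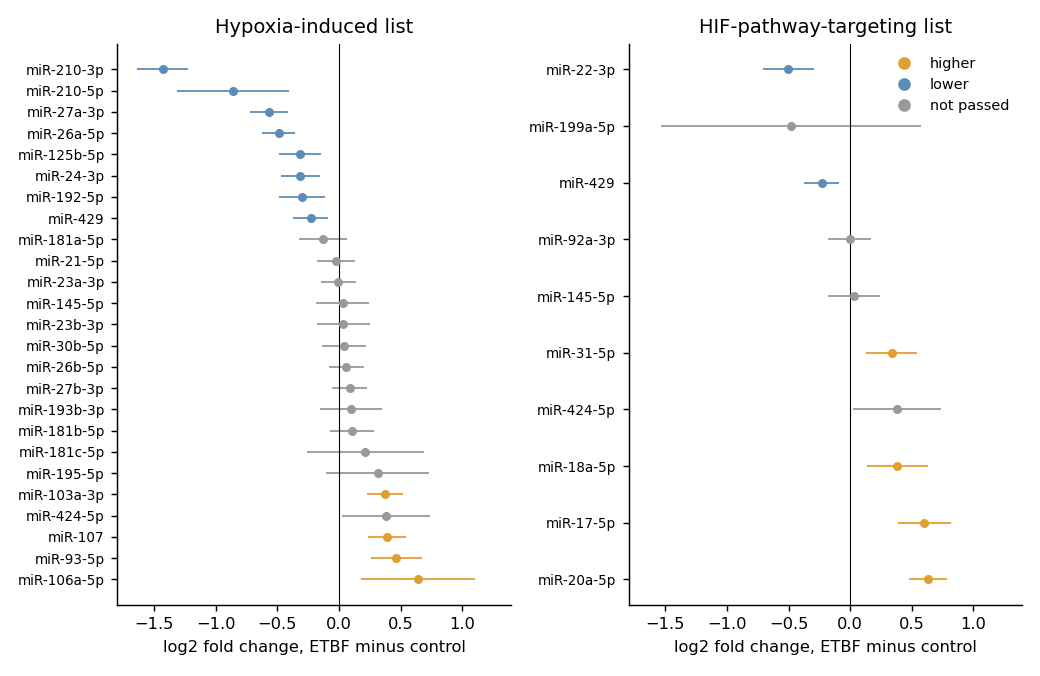
Log2 fold change (ETBF minus control) with 95% intervals for the tested members of the hypoxia-induced list (25, left) and of the list reported to act on the HIF system (10, right). Colours give the edgeR call, and the arms of miR-210 lie at the low end of the left panel, at -1.43 and -0.86, with the next member, miR-27a-3p, at -0.57.

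The miRNAs with the highest correlation with miR-210-3p over the 8 libraries, both groups pooled, were miR-574-3p, miR-132-3p, miR-330-3p, miR-375 and miR-30c-5p. Their Pearson correlations of log2 CPM with it were 0.981, 0.966, 0.966, 0.964 and 0.963, given as a description, since the 2 groups form separate clusters and carry most of each value. All 5 were lower with ETBF, at -0.95 (SE 0.09), -0.68 (SE 0.11), -0.45 (SE 0.08), -0.56 (SE 0.07) and -0.16 (SE 0.06) in log2 units. The call of miR-30c-5p (edgeR adjusted p = 0.0437) was lost in 12 of 18 alternatives, among them leaving out ETBF replicate 1, 3 or 4 or any 1 control (edgeR adjusted p = 0.0555 to 0.0982). MiR-210-5p, from the same hairpin, came 31st at 0.900. After subtraction of the group means the correlations of the first 5 with miR-210-3p were 0.362, 0.589, 0.420, -0.187 and 0.364, so miR-375 did not follow it within groups, and that of miR-210-5p was 0.521.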

How the data were processed

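Each of the 8 deposited tables lists unnormalised counts for the same 2575 mature miRNA names. The authors used Trimmomatic, FastQC and featureCounts with GRCh37.p5, per the submitters' processing notes. Not given in the sources used here are the versions, aligner, miRNA annotation and strand setting. Counts were tested in R 4.3.3 with edgeR 4.0.16 (TMM, filterByExpr with a minimum of 10 counts, quasi-likelihood F test, 2-group design), which kept 480 names and at least 99.96% of each library's counts. P-values were two-sided, adjusted by Benjamini-Hochberg over the 480, with a threshold of 0.05. The SE is the fold change over the root of its F statistic. Arm ratios, with 0.5 added to each count, were tested with limma 3.58.1 over 118 hairpins. Alternatives were other scalings, filters and tools (DESeq2 1.42.0, limma-voom), thinning, GC removal, a replicate block and leaving out each library. The code was tested on simulated data.

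The members, lists and tests were chosen with earlier results of these data known. Named were both arms, the 5 qPCR references, in each of the 2 hypoxia lists up to 6 passing members by abundance and the most abundant that did not pass, the 5 miRNAs most correlated with miR-210-3p and its 3 neighbours on either side in control level. Any other miRNA was named after its values were seen. Without molecular identifiers reads are not independent molecules, so intervals on counts cover counting error alone.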

Additional observations from a re-analysis of the deposited data

Results flagged for a closer look

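Single libraries stood far from the other 3 of their group in 6 of 66 groups of 4, a distance that chance gives in about 1 of 20 groups. Of these, 3 concerned miR-210, all in libraries numbered 2. Those of control replicate 2 share the same 69 reads of the 5p arm, so they are not separate events. Control replicate 2 had 12.2 CPM of miR-210-5p, where the other controls had 8.15 to 8.74 CPM. The 5p share of miR-210 counts was 1.82% in that library and 1.15% to 1.26% in the other controls. With ETBF it was 1.75% in replicate 2 and 2.12% to 2.13% in the others. Without control replicate 2 the fall of miR-210-5p was -0.72 (edgeR adjusted p = 0.0178) and the arm-ratio difference 0.77 (limma adjusted p = 0.00882).

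ETBF replicate 4 had 139 CPM of miR-330-3p, against 124 to 126 CPM for the remaining ETBF libraries. Control replicate 2 had 12539 CPM of miR-103a-3p, against 10658 to 10801 CPM for the remaining controls. Control replicate 1 had 1709 CPM of miR-93-5p, against 2347 to 2435 CPM.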

How the results depend on the processing

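MiR-210-3p kept its fall and its call in all 18 alternatives (log2 fold change -1.52 to -1.32, and -1.51 to -1.36 with 1 library left out). MiR-210-5p did so in all 17 that gave a value (-0.95 to -0.62, and -0.95 to -0.72 with 1 library left out); the stricter filter of 50 counts removed it. The difference from the reference miRNAs kept its direction in all 15. The share of the 5p arm differed by 0.67 percentage points (exact permutation p = 0.0571). The arm-ratio difference was 0.63 with the replicate block (limma adjusted p = 0.0662) and 0.54 after thinning (limma adjusted p = 0.170). It was 0.55 to 0.77 with 1 library left out. Its call was lost in 7 of 13 alternatives, the exact test of the share among them. Same-numbered libraries were not alike over the tested miRNAs (correlations of deviations -0.06 to 0.06, 0 of 4 ETBF libraries closest to their own number). The level of miR-210-3p, however, rose from replicate 1 to replicate 4 in both groups. The replicate block kept both falls (-1.44 and -0.85). In the list acting on the HIF system 2 members were higher with upper-quartile scaling and 1 lower with total-count scaling, and with 1 library left out 2 to 4 were higher and 1 to 2 lower.

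Signs turned only for named miRNAs that did not pass. MiR-21-5p was at 0.0336 with total-count scaling, 0.000477 with the stricter filter and 0.00776 after thinning. MiR-92a-3p was at 0.0482, 0.0185 and 0.0246 in these and at 0.000391 with limma-voom. MiR-30b-5p was at -0.0434 with upper-quartile scaling, at -0.00356 with no filter and at -0.0160 after GC removal, and miR-191-5p at -0.0379 with upper-quartile scaling. With 1 library left out they ran from -0.0807 to 0.00473 (miR-21-5p), -0.0639 to 0.0564 (miR-92a-3p), -0.0418 to 0.0864 (miR-30b-5p) and -0.0799 to 0.141 (miR-191-5p). The causes were not tested. Depth limits the passenger arm, at 17 to 69 counts a library.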

Other observations

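Of the 5 miRNAs used here as qPCR references, 3 changed with ETBF, where 34.4% of all 480 tested miRNAs did. MiR-103a-3p (log2 fold change 0.37, SE 0.07) and miR-16-5p (0.30, SE 0.08) were higher, and miR-423-3p was lower (-0.41, SE 0.07). The remaining members, miR-25-3p (-0.13, SE 0.07) and miR-191-5p (0.05, SE 0.12), missed the threshold with TMM scaling, and miR-25-3p passed with upper-quartile scaling (-0.22, edgeR adjusted p = 0.0370). MiR-16-5p lost its call when scaled by the upper quartile and without ETBF replicate 2 or control replicate 2 or 3 (edgeR adjusted p = 0.0725, 0.0726, 0.0606 and 0.0575).

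The miRNA genes next to MIR210 on chromosome 11 gave almost no reads. MIR6743 on one side and MIR6744, MIR4298 and MIR7847 on the other have 6 names in the tables, and 5 of them had 0 counts in every library. MiR-6743-3p was counted 3 times in all with ETBF and 2 times in controls.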
